A study of Mus musculus with 9 samples.

Results

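The genes described here encode the actin cytoskeleton and the proteins that build, cut, cap, bundle and anchor it, and they were taken as a named set of 40 symbols, listed with earlier results of these data known. Of the 40, 39 had a row among the 15434 genes of the table and all 39 passed the filter on low values, while Vcl, which encodes the adhesion protein vinculin, had no level analysed here. The 9 RNA sequencing libraries came from macrophages of C57BL/6J mice, 3 from testis, 3 from epididymis (the duct in which sperm mature) and 3 from brain, where the cells are called microglia. All groups were without culture or treatment, no age or genetic modification is given, and every library was sorted for live CD45+ CD11b+ F4/80+ cells that lacked Ly6C and CD11c. The labels give the 3 libraries of an organ 1 mouse number, different for each organ, so organ and mouse number cannot be told apart. Whether those 3 libraries are separate animals, pools or repeats is not said, so p-values reflect the spread of these libraries alone and it may be technical. The cell sort protocol mentions pooling of testis and epididymis suspensions without saying whether the organs were mixed, and each library is described here by its label.

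Actin exists as single subunits and as filaments, and a cell reshapes itself by adding subunits at one end of the filament and removing them at the other. Thymosins and profilin hold or deliver subunits, cofilin cuts old filaments, and the Arp2/3 complex starts branches when WASP or WAVE proteins activate it. Macrophages depend on this machinery for crawling, for engulfing particles and, in microglia, for extending and retracting fine processes.

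Assigned reads numbered 2727092 to 4458688 per library, and 1 read was worth between 0.808 and 1.11 of the normalised reads in which levels are given. Testis replicate 1 and epididymis replicate 3 were separated from the rest of their organs on the third principal component of all tested genes, which held 14.2% of the variance. Counts of called members are therefore also given without both, with the calls kept or lost. The labelled cell type was checked against its markers. None of 11 macrophage genes was at 0 in any organ, and their sum per 10000 reads was 76.8 to 82.5 in testis, 107 to 109 in epididymis and 146 to 159 in the brain. That sum is weighted by the genes with most reads, and single genes did not all follow it. In the main test 1 of the 11 was called higher and 3 lower in testis than brain, against 6.82% and 4.83% of all tested genes. Their median log2 fold was -0.81 for testis versus epididymis, -0.06 for testis versus brain and 0.20 for epididymis versus brain. The 9 measured microglia genes summed to 8.18 to 9.43 per 10000 reads in testis, 36.9 to 43.3 in epididymis and 101 to 116 in the brain. In sorted bulk cells, fewer cells of a type and less RNA per cell cannot be told apart.

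The promoters of 6 genes are shown because these were the members whose difference between testis and brain was called in the main test and in all 19 alternatives to it (Actg1, Actr3, Flna, Ezr, Ahnak and Vim). Each sequence is 1 RefSeq promoter of assembly GRCm38.p6, 250 bases before to 50 bases after the annotated start, read 5′ to 3′ on the gene's strand. Capitals mark a CArG box in Actg1 (the element bound by serum response factor), an AP-1 site in Ezr, a TATA box in Vim, and GC boxes in Actr3, Flna and Ahnak. A single kind of motif is in capitals in each promoter, and GC boxes of Actg1 and Ezr, among others, are left in lower case.
Actg1 chr11:120348446-120348745 (minus strand): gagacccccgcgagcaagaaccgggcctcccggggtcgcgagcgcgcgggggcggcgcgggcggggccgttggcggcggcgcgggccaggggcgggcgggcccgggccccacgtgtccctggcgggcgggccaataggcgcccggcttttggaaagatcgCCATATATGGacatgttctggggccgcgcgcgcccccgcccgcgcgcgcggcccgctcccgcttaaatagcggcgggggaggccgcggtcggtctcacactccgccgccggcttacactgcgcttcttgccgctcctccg
Actr3 chr1:125435678-125435977 (minus strand): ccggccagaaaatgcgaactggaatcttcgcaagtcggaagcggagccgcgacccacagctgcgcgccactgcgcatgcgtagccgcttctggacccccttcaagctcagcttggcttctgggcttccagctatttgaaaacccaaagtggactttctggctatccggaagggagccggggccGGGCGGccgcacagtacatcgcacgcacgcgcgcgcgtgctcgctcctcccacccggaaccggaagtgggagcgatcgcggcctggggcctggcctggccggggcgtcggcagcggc
Flna chrX:74246485-74246784 (minus strand): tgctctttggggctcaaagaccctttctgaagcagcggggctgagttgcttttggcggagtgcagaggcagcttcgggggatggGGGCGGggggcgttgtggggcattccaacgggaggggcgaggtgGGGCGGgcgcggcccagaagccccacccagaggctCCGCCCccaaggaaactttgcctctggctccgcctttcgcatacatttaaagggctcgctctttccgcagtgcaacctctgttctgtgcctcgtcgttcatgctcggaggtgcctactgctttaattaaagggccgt
Ezr chr17:6782731-6783030 (minus strand): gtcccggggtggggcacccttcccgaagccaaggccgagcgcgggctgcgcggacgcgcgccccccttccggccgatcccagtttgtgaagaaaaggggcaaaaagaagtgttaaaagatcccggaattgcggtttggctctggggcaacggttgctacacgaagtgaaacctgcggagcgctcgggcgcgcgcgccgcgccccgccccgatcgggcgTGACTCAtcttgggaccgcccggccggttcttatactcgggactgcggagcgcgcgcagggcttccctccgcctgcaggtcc
Ahnak chr19:8989034-8989333 (plus strand): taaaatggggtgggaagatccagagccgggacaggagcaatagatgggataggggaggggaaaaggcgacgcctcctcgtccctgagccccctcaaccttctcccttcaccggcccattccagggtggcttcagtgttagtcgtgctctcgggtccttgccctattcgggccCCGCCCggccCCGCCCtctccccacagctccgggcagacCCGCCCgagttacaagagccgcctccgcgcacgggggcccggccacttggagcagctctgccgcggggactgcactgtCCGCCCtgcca
Vim chr2:13574061-13574360 (plus strand): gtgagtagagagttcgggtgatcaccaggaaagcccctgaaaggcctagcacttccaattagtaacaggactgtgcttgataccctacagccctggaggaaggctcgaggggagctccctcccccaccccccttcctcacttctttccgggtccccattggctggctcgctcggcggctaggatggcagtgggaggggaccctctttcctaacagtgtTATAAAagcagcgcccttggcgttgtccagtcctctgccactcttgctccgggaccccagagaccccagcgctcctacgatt
The first base of the CArG box in Actg1 lay at -90 from the start, and those of the AP-1 site in Ezr and of the TATA box in Vim at -32. Actr3 held 1 GC box, Flna 3 and Ahnak 4.

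These motifs were searched on both strands in the 43 promoters of the 35 members that matched the RefSeq table, beside all 32851 promoters of 27025 genes. A CArG box was present in the promoters of 3 members (Actg1, Arpc4 and Vcl), against 1.63% of all promoters. The AP-1 site TGACTCA or TGAGTCA was present in Ezr, against 5.2% of all promoters. A TATA box, TATAAA, was present in 4 members (Cdc42, Rhoa, Myh9 and Vim), against 13.6% of all promoters. The GC box GGGCGG was present in 29 members, in 32 of the 43 promoters, against 35.7% of all promoters, and the ETS core CCGGAA in 12 members, against 14.9%. Matches of different motifs overlapped 1 time among the members' promoters. A match describes letters in this window and not a bound site.

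Most of these genes had their higher level in testis macrophages. A log2 fold above 0 was found for 32 of 39 members in testis versus epididymis and for 32 in testis versus brain, against 53.5% and 47.7% of all tested genes. These member counts depended on scaling. They were 26 and 27 with the libraries rescaled to the same total, and 28 and 28 with quantile normalization. Between testis and epididymis, 5 members were called higher in testis (Actb, Actg1, Capg, Flna and Ahnak), 0 were called lower and 34 were not called, at an adjusted p below 0.05 in limma over all 11766 tested genes. Unadjusted, 13 members had p below 0.05 in the direction of testis and 1 in that of epididymis, against 17.5% of all tested genes in either direction. That share was 23.4% for testis versus brain and 16.4% for epididymis versus brain. On the recovered reads, edgeR and DESeq2 also called 0 members lower in testis than epididymis. Among all tested genes, 2.49% were called higher and 1.9% lower by limma for testis versus epididymis. Between testis and brain, 16 members were called higher in testis, 1 was called lower (Wasf2) and 22 were not called, against 6.82% called higher and 4.83% called lower among all tested genes. Between epididymis and brain, 5 members were called higher in epididymis (Arpc1b, Actr3, Ezr, Ahnak and Vim), 1 was called lower (Wasf2) and 33 were not called, against 2.99% and 1.8% among all tested genes. The median log2 fold over the 39 members was 0.57 for testis versus epididymis, against 0.10 over all tested genes. It was 0.82 for testis versus brain, against -0.07, and 0.28 for epididymis versus brain, against -0.13. Each organ enters a pair of these comparisons, so they share libraries. The same shares of all tested genes stand beside the counts by role and by gene list below, where each holds few genes.

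These counts depended on the fit and on the libraries that stood apart. Without testis replicate 1 and epididymis replicate 3, 1 member was called higher for testis versus epididymis (Ahnak), 12 for testis versus brain and 0 for epididymis versus brain, with 0, 1 and 1 called lower. The testis versus brain calls lost without both were those of Tmsb10, Arpc5, Cdc42, Myh9 and Wasf2, and the member called lower there was Evl. For epididymis versus brain only the call of Wasf2 was kept. Without variances that follow the mean level, calls were kept for Capg and Ahnak in testis versus epididymis, for Actg1, Actr3, Flna, Ezr, Ahnak and Vim in testis versus brain, and for Vim in epididymis versus brain. Rescaling the libraries to the same total gave 227 genes called higher and 307 lower over all tested genes for testis versus epididymis, against 293 and 223 as deposited, and 654 and 772 for testis versus brain, against 803 and 568. Quantile normalization gave 223 and 256 for testis versus epididymis. Under these scalings 4 members were called higher for testis versus epididymis and 12 for testis versus brain, and 0 of the 28 called differences of members changed sign in any alternative.

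**Figure D1:**
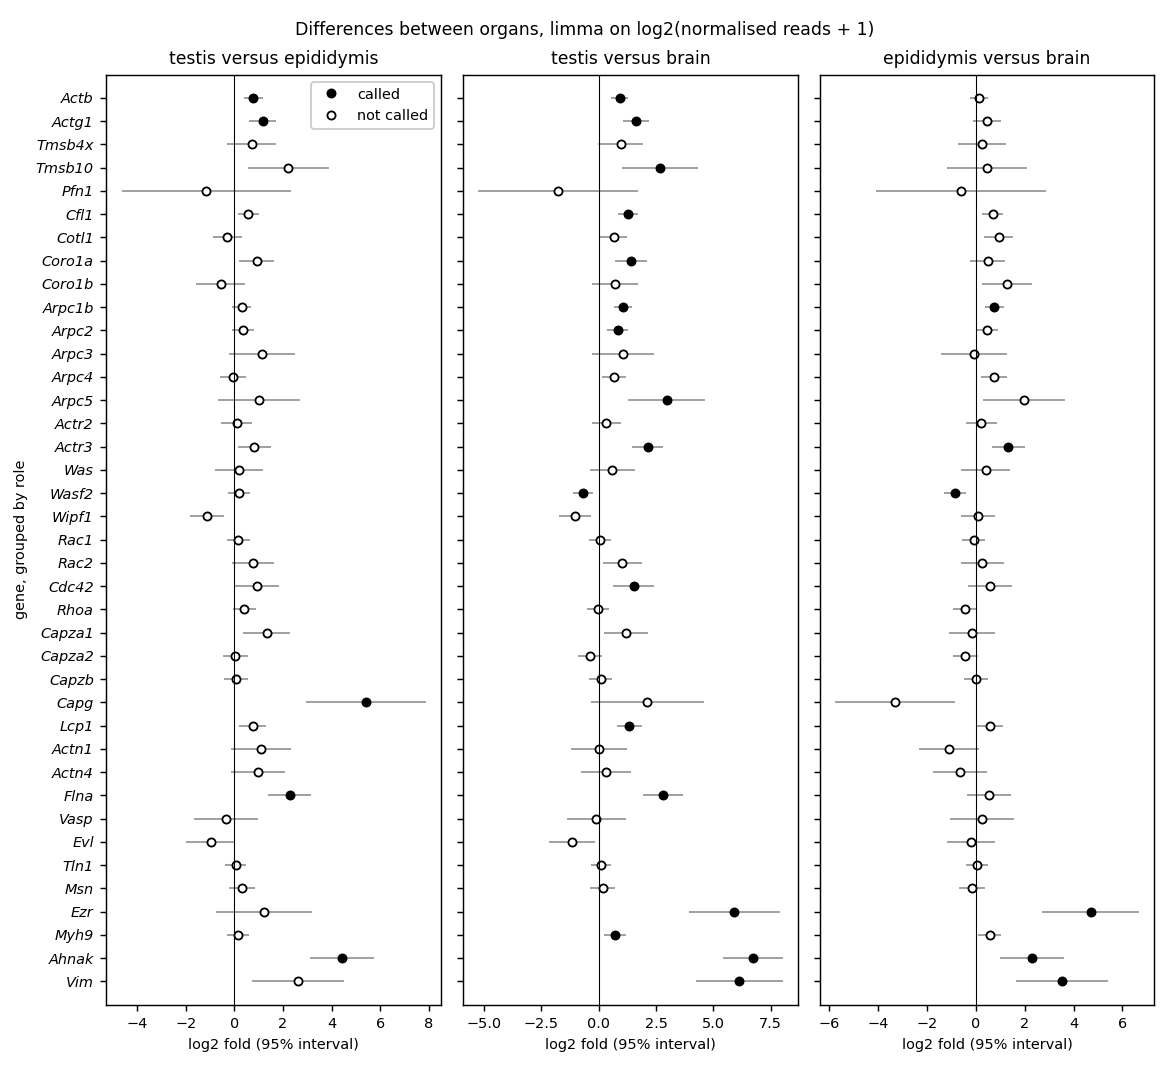
Log2 fold of each of 39 actin cytoskeleton genes (rows, grouped by role) in testis versus epididymis, testis versus brain and epididymis versus brain, on log2(normalised reads + 1), with 95% intervals as lines. Filled points were called at an adjusted p below 0.05 (5, 17 and 6 genes), and most points in the testis versus brain panel lie right of 0.

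The 3 values of one organ could also be set against the 3 of another without a model. All 3 testis libraries lay above all 3 epididymis libraries for 18 members and below them for 1, against 11% and 8.8% of all tested genes. Against brain, all testis libraries lay above for 20 members and below for 2, against 15.9% and 14.9%. All epididymis libraries lay above all brain libraries for 10 members and below them for 5, against 10.5% and 11.5%. The full order of testis above epididymis above brain, with no overlap at either step, was found for Cfl1, Arpc1b, Ezr, Ahnak and Vim, 5 of 39 members against 1.73% of all tested genes. At the other end, 11 members overlapped in every comparison, against 55.3% of all tested genes: Tmsb4x, Pfn1, Actr2, Was, Rac1, Rac2, Capza2, Capzb, Vasp, Evl and Tln1.

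**Figure D2:**
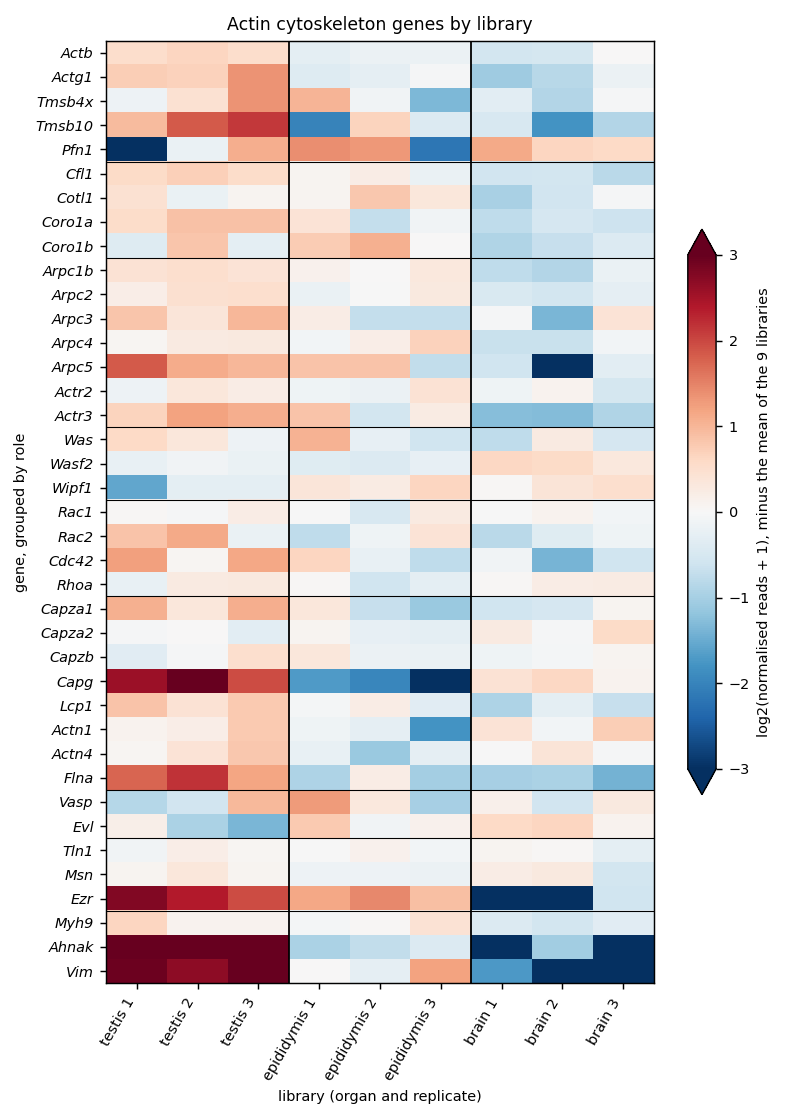
Level of 39 actin cytoskeleton genes (rows, grouped by role) in the 9 libraries (columns), as log2(normalised reads + 1) minus the gene's mean over the libraries. Colours are clipped at 3 in both directions. Ahnak, Vim, Ezr and Flna are high in the 3 testis libraries, and Ahnak, Vim and Ezr are lowest in brain.

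The cytoplasmic actins themselves were higher in testis. Actb (beta-actin, chr5:142903115-142906754, GRCm38, GENCODE M21) had 22843, 24946 and 22814 normalised reads in testis, 13048, 13981 and 14120 in epididymis and 10928, 11106 and 16072 in the brain. Every testis library lay above every other library, while epididymis and brain overlapped. The log2 fold of Actb was 0.78 (SE 0.18, adjusted p = 0.021) for testis versus epididymis and 0.91 (SE 0.18, adjusted p = 0.0029) for testis versus brain. Actg1 (gamma-actin, chr11:120345690-120348542), the other actin of non-muscle cells, had 1623, 1584 and 2504 normalised reads in testis, 753, 812 and 957 in epididymis and 469, 547 and 862 in the brain. Again all testis libraries were above the rest and the other organs overlapped. Its log2 fold was 1.15 (SE 0.27, adjusted p = 0.023) for testis versus epididymis and 1.62 (SE 0.27, adjusted p = 0.00073) for testis versus brain. The ratio of Actb to Actg1 reads was 13.0 ± 3.44 in testis, 16.4 ± 1.47 in epididymis and 20.7 ± 2.38 in the brain (SD, n = 3 each).

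The testis versus epididymis calls of the actins did not hold on leaving out single libraries, while their folds changed little. Without 1 of the libraries compared, the log2 fold was 0.74 to 0.80 for Actb and 0.94 to 1.27 for Actg1. The call for Actb was lost on leaving out any 1 of the 6 libraries compared, at adjusted p between 0.052 (without testis replicate 3) and 0.087 (without testis replicate 2), and under quantile normalization its log2 fold was 0.14 (adjusted p = 0.68). The call for Actg1 was lost without testis replicate 3 (adjusted p = 0.10), epididymis replicate 1 (0.076) or epididymis replicate 2 (0.078). Against brain, both calls were kept on leaving out any library, and that of Actb was lost under quantile normalization, where its log2 fold was 0.29 (adjusted p = 0.24). Actg1 has 11 annotated pseudogenes of up to 99.6% identity and Actb shares 87.8% of 1186 aligned bases with it, so reads of the actins may have been split in counting.

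Of the proteins that bind actin subunits, Tmsb10 was higher in testis than in brain and the others were not called. Tmsb10 (thymosin beta 10, a subunit-sequestering peptide) had 147, 275 and 334 normalised reads in testis, 18, 121 and 57 in epididymis and 55, 21 and 41 in the brain. The log2 fold for testis versus brain was 2.68 (SE 0.77, adjusted p = 0.035), and the call was lost without testis replicate 2 (adjusted p = 0.12) or 3 (0.14) or any 1 brain library (0.061, 0.12 and 0.074). Tmsb4x (thymosin beta 4) had 2567, 3894 and 7310 normalised reads in testis, 5745, 2666 and 1112 in epididymis and 2298, 1551 and 2802 in the brain. Its libraries overlapped in each comparison and differed several-fold within testis and within epididymis. Pfn1 (profilin 1, which loads subunits onto filament ends) had 0, 11 and 29 normalised reads in testis, 36, 34 and 2 in epididymis and 30, 21 and 20 in the brain, the lowest level per exon length of all members in testis. How reads were counted is not stated, so the Pfn1 level is uncertain and may come from counting, which was not tested.

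Filament turnover was represented by cofilin, coactosin and coronins. Cfl1 (cofilin 1, which severs filaments) had 1755, 1917 and 1729 normalised reads in testis, 1249, 1384 and 1032 in epididymis and 784, 798 and 667 in the brain. The 3 organs did not overlap, and the testis versus brain difference was called at a log2 fold of 1.27 (SE 0.20, adjusted p = 0.00056). Epididymis versus brain was not called for Cfl1 in limma (adjusted p = 0.064) but was by DESeq2 (0.013) and with a filter of at least 50 (0.042). Coro1a, the coronin of blood cells, had 476, 601 and 603 normalised reads in testis, 431, 199 and 303 in epididymis and 191, 231 and 212 in the brain. Every testis library was above every other library, with a log2 fold of 1.40 (SE 0.33, adjusted p = 0.011) against brain, which was lost without brain replicate 1 (adjusted p = 0.052). Coro1b, a coronin found in most cells, averaged 175 ± 90.3 in testis, 251 ± 86.0 in epididymis and 99.0 ± 17.0 in the brain (SD, n = 3 each) and was not called. Cotl1, a coactosin-like filament-binding protein, averaged 1329 ± 300 in testis, 1636 ± 426 in epididymis and 864 ± 286 in the brain. All epididymis libraries of Cotl1 lay above all brain libraries, and it was not called in limma (adjusted p = 0.065 for epididymis versus brain) but was in that comparison by DESeq2 (0.032), with a pseudocount of 10 (0.038) and without brain replicate 3 (0.029). Cfl1 has 4 annotated pseudogenes of up to 98.8% identity, and 16.5% of its exon length overlaps Snx32 on the opposite strand, which the library kit does not mark.

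The Arp2/3 complex starts new branches on existing filaments, and all 7 of its measured subunits were tested. Between testis and brain 4 subunits were called higher in testis (Arpc1b, Arpc2, Arpc5 and Actr3) and 3 were not called, against 6.82% called higher among all tested genes. Between epididymis and brain 2 were called higher in epididymis (Arpc1b and Actr3), against 2.99%. Between testis and epididymis 0 of 7 were called in limma, edgeR or DESeq2, with 1 (Actr3) at an unadjusted p below 0.05. Of all tested genes, limma called 2.49% higher and 1.9% lower there. Arpc1b (chr5:145114215-145130705), the isoform of the Arpc1 subunit found mainly in blood cells, had 25654, 26638 and 24959 normalised reads in testis, 20748, 19048 and 23554 in epididymis and 11202, 10320 and 16374 in the brain. The 3 organs did not overlap. Its log2 fold against brain was 1.06 in testis (SE 0.19, adjusted p = 0.0015) and 0.77 in epididymis (SE 0.19, adjusted p = 0.028). Under quantile normalization the testis versus brain fold was 0.47 (adjusted p = 0.074). Actr3 (Arp3, chr1:125392905-125435727), one of the actin-like subunits, had 1031, 1496 and 1379 normalised reads in testis, 1171, 443 and 769 in epididymis and 267, 265 and 347 in the brain. All libraries of both reproductive organs were above those of brain, and testis and epididymis overlapped. The log2 fold of Actr3 against brain was 2.14 in testis (SE 0.32, adjusted p = 0.00031) and 1.34 in epididymis (SE 0.32, adjusted p = 0.024).

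Arpc5, the small p16 subunit, had 577, 347 and 321 normalised reads in testis, 287, 287 and 95 in epididymis and 105, 9 and 127 in the brain, with a log2 fold of 2.97 for testis versus brain (SE 0.79, adjusted p = 0.022). Arpc2, a structural subunit, had 1323, 1625 and 1626 in testis, 1010, 1147 and 1427 in epididymis and 841, 793 and 953 in the brain, with a log2 fold of 0.82 for testis versus brain (SE 0.21, adjusted p = 0.019). For both genes all testis libraries lay above all brain libraries. The Arpc5 call was lost without any 1 testis library (adjusted p 0.098, 0.070 and 0.058) or brain replicate 2 (0.055, where its log2 fold was 1.79), and the Arpc2 call without testis replicate 2 (0.068) or 3 (0.064) or brain replicate 1 (0.069) or 2 (0.074). In epididymis versus brain, the Arpc1b call was lost without any 1 of the epididymis libraries, brain replicate 1 or 2, or testis replicate 1 or 2 (adjusted p 0.052 to 0.18), and the Actr3 call without epididymis replicate 1 (0.11) or 3 (0.078) or brain replicate 1 (0.096) or 2 (0.093). Arpc3, Arpc4 and Actr2 (Arp2, the other actin-like subunit) were not called, and Actr2 averaged 457 ± 78.1, 432 ± 108 and 365 ± 77.6 normalised reads in testis, epididymis and brain (SD, n = 3 each).

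Subunits that sit in the complex in equal number were read at very unequal levels. Per kb of merged exon length, Arpc1b had 5034 normalised reads in testis, 4128 in epididymis and 2470 in the brain, and the second subunit, Arpc2, 750, 588 and 424. Arpc1b was thus 6.71-fold above Arpc2 in testis, 7.02-fold in epididymis and 5.83-fold in the brain. Arpc3, the lowest, had 55.3, 26.0 and 29.4 per kb, 91.0-fold, 159-fold and 84.0-fold below Arpc1b. Merged exon length counts exons of all annotated transcripts, so a gene with long alternative exons has a lower value, and this spread is between genes and not between organs. Arpc1b has 3 annotated pseudogenes of up to 97.5% identity and Actr3 has 2 of up to 100%, and 18.2% of the exon length of Arpc1b overlaps Pdap1 on the opposite strand.

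**Figure D3:**
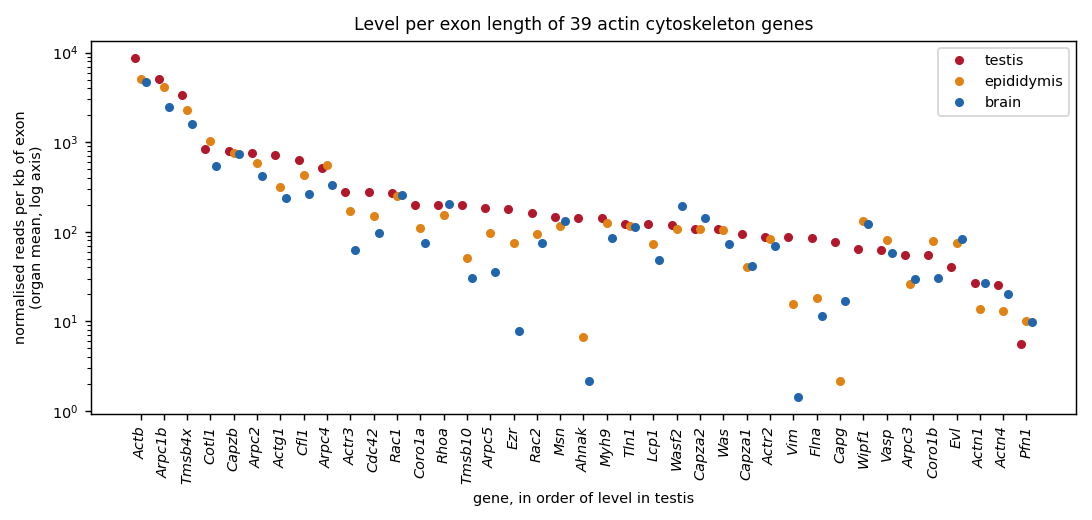
Mean normalised reads per kb of merged exon length (log axis) of 39 actin cytoskeleton genes in testis, epididymis and brain macrophages, 3 libraries each, ordered by the level in testis. Actb, Arpc1b and Tmsb4x take the first 3 places in each organ, and Ahnak, Vim, Flna, Capg and Ezr show the widest gaps between organs.

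The factors that activate the Arp2/3 complex included Wasf2, the one member called lower in limma. Wasf2 (WAVE2, chr4:133130505-133199756), which acts downstream of Rac, had 728, 789 and 737 normalised reads in testis, 650, 633 and 714 in epididymis and 1296, 1263 and 1058 in the brain. Every brain library was above every other library. The log2 fold of Wasf2 was -0.68 for testis versus brain (SE 0.21, adjusted p = 0.048) and -0.85 for epididymis versus brain (SE 0.21, adjusted p = 0.028). The first call was lost in 14 of 19 alternatives, among them leaving out any 1 testis library (adjusted p 0.099, 0.080 and 0.10), any 1 brain library (0.17, 0.14 and 0.055), or epididymis replicate 1 (0.052) or 2 (0.055). The second was lost without epididymis replicate 1 (0.074) or 2 (0.082) or brain replicate 1 (0.13) or 2 (0.10). Wipf1 (WIP, the partner that stabilises WASP) had 197, 474 and 476 normalised reads in testis, 744, 687 and 906 in epididymis and 595, 757 and 822 in the brain. All testis libraries of Wipf1 lay below all others, and it was not called (adjusted p = 0.069 against epididymis and 0.057 against brain) but was called with the libraries rescaled to the same total (adjusted p = 0.029 and 0.017). Was (WASP, the activator of blood cells) averaged 257 ± 63.4 in testis, 250 ± 162 in epididymis and 174 ± 67.7 in the brain (SD, n = 3 each), with overlap throughout.

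Of Cdc42, Rac1, Rac2 and Rhoa, Cdc42 was called between testis and brain and the other 3 were called in no comparison by limma, edgeR or DESeq2, with 1 (Rac2) at an unadjusted p below 0.05 for testis versus brain. Cdc42, which drives thin protrusions, had 1037, 458 and 987 normalised reads in testis, 688, 375 and 258 in epididymis and 411, 167 and 289 in the brain. The testis libraries were above the brain libraries, at a log2 fold of 1.52 (SE 0.43, adjusted p = 0.031), and the call was lost without testis replicate 1 (adjusted p = 0.13) or 3 (0.12) or brain replicate 2 (0.15) or 3 (0.071). Rac1, which drives sheet-like protrusions, averaged 1218 ± 114 in testis, 1117 ± 286 in epididymis and 1160 ± 76.7 in the brain (SD, n = 3 each). The 95% interval of its log2 fold was -0.41 to 0.54 for testis versus brain. Rac2, the Rac of blood cells, averaged 503 ± 210, 291 ± 113 and 232 ± 53.4 in testis, epididymis and brain, and testis versus brain was called without testis replicate 3 (adjusted p = 0.042, against 0.13 with it). Rhoa, which controls contraction, averaged 1503 ± 291, 1143 ± 252 and 1533 ± 109. Exons of Rac1 overlap Daglb on the opposite strand over 51.4% of their length, so the Rac1 level is uncertain.

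Of 8 capping and bundling genes, 2 were called higher in testis than epididymis (Capg and Flna) and 2 higher in testis than brain (Flna and Lcp1). In epididymis versus brain 0 were called by limma or edgeR (1 by DESeq2, 2 at an unadjusted p below 0.05). Of all tested genes, limma called 2.49%, 6.82% and 2.99% higher in these comparisons. Capg (chr6:72544391-72562983), a macrophage capping protein of the gelsolin family, had 194, 267 and 127 normalised reads in testis, 9, 8 and 0 in epididymis and 44, 50 and 35 in the brain. The organs did not overlap, with epididymis lowest at 18 reads in all. Its log2 fold was 5.41 for testis versus epididymis (SE 1.16, adjusted p = 0.014). It was not called for testis versus brain (adjusted p = 0.30) or epididymis versus brain (adjusted p = 0.13), while with only testis and brain in the fit testis versus brain had an adjusted p of 0.026 and DESeq2 gave 0.017 for epididymis versus brain. The testis versus epididymis call of Capg was lost with only those organs in the fit (adjusted p = 0.087), without testis replicate 1 (0.057) or 2 (0.083), and without both testis replicate 1 and epididymis replicate 3 (0.055).

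Flna (filamin A, chrX:74223461-74249820), which crosslinks filaments into networks, had 794, 1054 and 536 normalised reads in testis, 124, 273 and 115 in epididymis and 118, 122 and 87 in the brain. All testis libraries were above all others and the other organs overlapped. For Flna the log2 fold was 2.28 for testis versus epididymis (SE 0.41, adjusted p = 0.0048) and 2.82 for testis versus brain (SE 0.41, adjusted p = 0.00027). Both calls were kept on leaving out any 1 library, and the first was lost without both testis replicate 1 and epididymis replicate 3 (adjusted p = 0.076). Lcp1 (L-plastin, the bundling protein of blood cells) had 1270, 959 and 1217 in testis, 682, 830 and 553 in epididymis and 373, 572 and 439 in the brain. The testis libraries of Lcp1 were the highest, and testis versus brain was called at a log2 fold of 1.33 (SE 0.26, adjusted p = 0.0026).

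The other bundling and capping members were called in no comparison. The alpha-actinins, which crosslink filaments, had every epididymis library below every library of the other organs: Actn1 averaged 148 ± 40.5 in testis, 75.3 ± 38.4 in epididymis and 147 ± 40.4 in the brain, and Actn4 155 ± 39.5, 80.2 ± 24.9 and 123 ± 21.7 (SD, n = 3 each). Capza1, an alpha subunit of the heterodimer that caps the growing end, averaged 360 ± 97.0 in testis, 154 ± 84.4 in epididymis and 158 ± 42.1 in the brain. Its partner Capzb averaged 2662 ± 822, 2516 ± 558 and 2443 ± 192, and Capza2, the other alpha subunit, 641 ± 77.4, 626 ± 92.0 and 848 ± 181. The 95% interval of the Capzb log2 fold was -0.41 to 0.57 for testis versus brain. Capza1 has 3 annotated pseudogenes of up to 99.5% identity.

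Ena/VASP proteins, which protect growing ends, were called in no comparison by limma, edgeR or DESeq2, with 1 (Evl) at an unadjusted p below 0.05 in testis versus brain: Vasp averaged 163 ± 120 in testis, 212 ± 147 in epididymis and 152 ± 44.9 in the brain, and Evl 120 ± 70.5, 221 ± 74.2 and 247 ± 48.8 (SD, n = 3 each). Testis libraries of Evl held 200, 91 and 68 normalised reads, and the testis versus brain difference was called without testis replicate 1 (adjusted p = 0.038, against 0.13 with it). Tln1 (talin 1), which ties integrins to actin, averaged 1184 ± 128 in testis, 1142 ± 87.4 in epididymis and 1105 ± 151 in the brain. The 95% interval of its log2 fold was -0.39 to 0.49 for testis versus epididymis and -0.33 to 0.54 for testis versus brain.

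Ezrin and moesin link actin to the plasma membrane, and they differed in their values across organs. Ezr (ezrin, chr17:6738041-6782784) had 756, 574 and 427 normalised reads in testis, 244, 296 and 205 in epididymis and 5, 1 and 72 in the brain, with no overlap between organs. For Ezr the log2 fold was 5.91 for testis versus brain (SE 0.93, adjusted p = 0.00051) and 4.70 for epididymis versus brain (SE 0.93, adjusted p = 0.0078), and testis versus epididymis was not called (adjusted p = 0.55). The epididymis versus brain call of Ezr was lost without the variance trend (adjusted p = 0.097) and with only the 2 organs in the fit. It was also lost without both testis replicate 1 and epididymis replicate 3. The brain values spread widely, and the ratio of means, 22.6 for testis over brain, is smaller than the fold on the log scale. Msn (moesin), the ezrin relative abundant in blood cells, averaged 922 ± 102 in testis, 737 ± 7.64 in epididymis and 842 ± 249 in the brain (SD, n = 3 each) and was not called. The sequences of Ezr and Msn share 78.7% of 1057 aligned bases.

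Myh9, Ahnak and Vim were all called higher in testis than in brain. Ahnak (chr19:8989284-9076914), which encodes a giant scaffold protein under the membrane, had 2982, 2529 and 3126 normalised reads in testis, 112, 130 and 163 in epididymis and 11, 105 and 15 in the brain. The testis values stood 21.3-fold above epididymis and 66.0-fold above brain as ratios of means, with no overlap between organs. The log2 fold of Ahnak was 4.42 for testis versus epididymis (SE 0.61, adjusted p = 0.00075), 6.72 for testis versus brain (SE 0.61, adjusted p = 2.4e-06) and 2.30 for epididymis versus brain (SE 0.61, adjusted p = 0.044). The first and second calls were kept in all 19 alternatives. The epididymis versus brain call was lost in 13 of 19. Among these were edgeR, DESeq2, the fit with only the 2 organs and the fit without the variance trend. It was also lost without both testis replicate 1 and epididymis replicate 3, and on leaving out any 1 library other than brain replicate 2 (adjusted p 0.072 to 0.18 for 1 library left out).

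Vim (vimentin, chr2:13573927-13582826), an intermediate filament and not an actin filament protein, had 419, 347 and 472 normalised reads in testis, 54, 44 and 125 in epididymis and 15, 3 and 2 in the brain. The organs did not overlap. Its log2 fold was 6.14 for testis versus brain (SE 0.88, adjusted p = 0.00023) and 3.54 for epididymis versus brain (SE 0.88, adjusted p = 0.031). For testis versus epididymis Vim was not called (adjusted p = 0.13), though it was with a pseudocount of 10 (adjusted p = 0.024), with only the 2 organs in the fit (0.030) and by DESeq2 (0.0079). The epididymis versus brain call was lost without any 1 of the testis libraries, epididymis replicate 1 or 3, or brain replicate 2 or 3 (adjusted p 0.058 to 0.11). Myh9, the heavy chain of non-muscle myosin IIA, which pulls on filaments, had 2297, 1582 and 1585 normalised reads in testis, 1413, 1499 and 1999 in epididymis and 1114, 1004 and 1170 in the brain. All testis libraries lay above brain, at a log2 fold of 0.71 (SE 0.22, adjusted p = 0.045), and the call was lost in 14 of 19 alternatives, among them leaving out any 1 testis or brain library or epididymis replicate 2 (adjusted p 0.059 to 0.18).

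**Figure D4:**
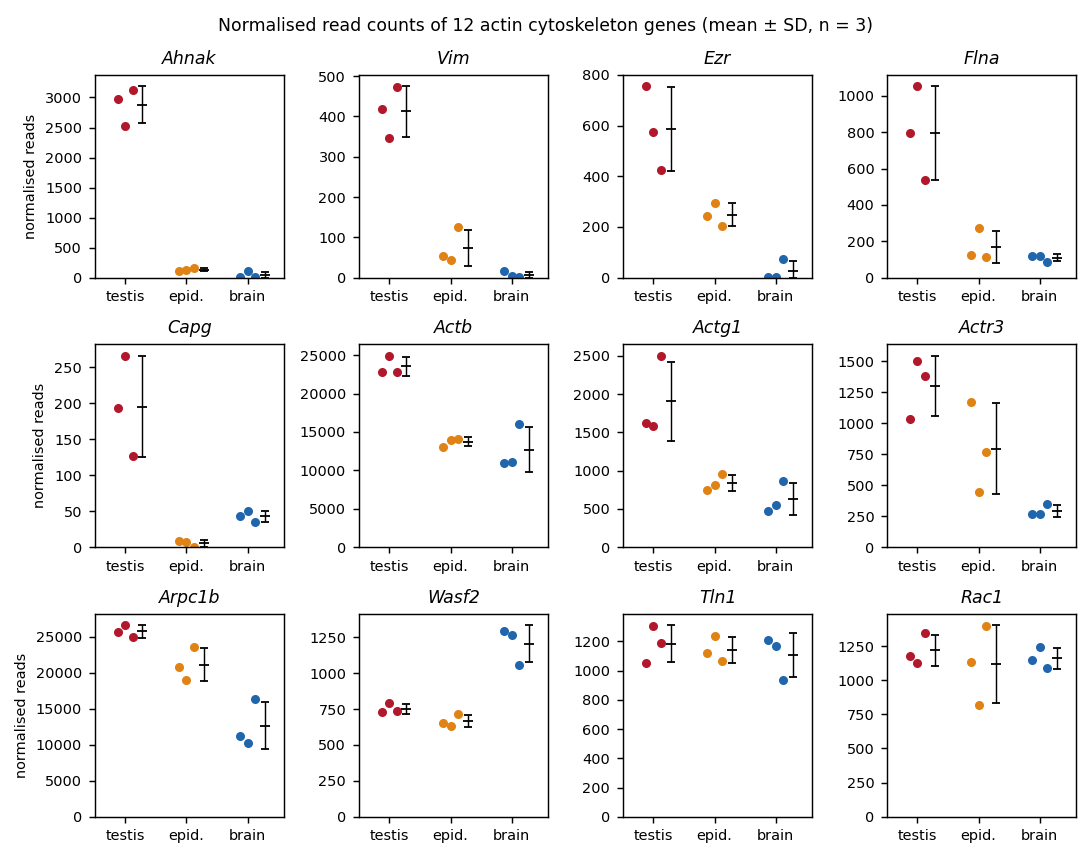
Normalised read counts of 12 actin cytoskeleton genes in testis, epididymis (epid.) and brain macrophages, 1 coloured point per library, with black marks at the mean ± SD (n = 3), the lower bar stopping at 0. Each panel has its own axis from 0. For Ahnak, Vim, Flna and Capg every testis point is above all others, for Wasf2 every brain point is, and Tln1 and Rac1 overlap in all organs.

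Other gene groups moved with the organs beside these genes. The 24 measured ribosomal protein genes summed to 226 to 271 per 10000 reads in testis, 100 to 130 in epididymis and 51.3 to 72.9 in the brain, with 16 called higher in testis than epididymis, 21 higher in testis than brain and 6 higher in epididymis than brain. The 19 measured immediate early and dissociation stress genes summed to 442 to 481 in testis, 169 to 180 in epididymis and 237 to 356 in the brain. Of these, 15 were called higher in testis than epididymis and 11 higher in testis than brain, and against brain 1 was called higher and 5 lower in epididymis. Their part in the actin results was not tested.

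Ahnak, Vim and Flna are also expressed by other cells, and markers of fibroblasts, muscle, T and NK cells and dendritic cells were summed per 10000 reads. The 5 measured fibroblast genes gave 0.209 to 0.463 in testis, 0.152 to 0.409 in epididymis and 0.054 to 0.109 in the brain, with Col3a1 at 0 in epididymis and Col3a1 and Dcn at 0 in brain. The 6 smooth muscle and peritubular genes gave 0.517 to 0.575 in testis, 0.00337 to 0.352 in epididymis and 0.00733 to 0.0597 in the brain, with Actg2 at 0 in testis, Myh11, Tagln and Des at 0 in epididymis, and Myh11, Cnn1 and Des at 0 in brain. The 7 T and NK cell genes gave 2.11 to 3.45 in testis, 0.207 to 0.56 in epididymis and 0.222 to 0.506 in the brain, with Lck at 0 in epididymis and Cd3e, Lck and Nkg7 at 0 in brain. The 3 measured dendritic cell genes gave 1.00 to 1.61 in testis, 0.477 to 0.61 in epididymis and 0.383 to 0.518 in the brain. The sums of these 4 lists were highest in testis on average, and their part in the Ahnak, Vim and Flna differences was not tested.

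Cells particular to one organ were traced in the same way. The 5 Leydig cell genes summed to 3.4 to 8.83 per 10000 reads in testis, 0.091 to 0.643 in epididymis and 0.249 to 0.336 in the brain, with Insl3, Cyp17a1 and Hsd3b1 at 0 in epididymis and Cyp17a1 and Hsd3b1 at 0 in brain. The 4 measured germ cell genes gave 1.41 to 4.58 in testis, 1.28 to 2.08 in epididymis and 0 to 0.0477 in the brain, with Prm1 and Tnp2 at 0 in brain. The 6 measured epididymal epithelium genes gave 0.0551 to 0.251 in testis, 0.679 to 1.16 in epididymis and 0 to 0.077 in the brain, with Lcn5, Lcn8 and Defb20 at 0 in testis and in brain, and Krt8 at 0 in epididymis and in brain. The 4 measured endothelial genes gave 0.417 to 1.05, 0.317 to 0.797 and 1.17 to 1.65 in testis, epididymis and brain, and the 5 neutrophil genes 0 to 0.0264, 0.165 to 0.477 and 1.19 to 2.23, with S100a8, S100a9, Retnlg and Ly6g at 0 in testis, Retnlg at 0 in epididymis and Ly6g at 0 in brain. Their part in the results was not tested.

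Outside the set, 150 other genes of the actin machinery were listed in 9 groups, and 123 of them were tested. Between testis and epididymis 7 were called higher and 7 lower in testis, against 2.49% and 1.9% of all tested genes. Between testis and brain 24 were called higher and 16 lower in testis, against 6.82% and 4.83%. Between epididymis and brain 12 were called higher and 7 lower in epididymis, against 2.99% and 1.8%. The same shares of all tested genes stand beside the counts of single groups below. Their median log2 fold was 0.13, 0.28 and 0.04 in these comparisons, so the median over these genes was nearer to that of all tested genes than the median over the 39 members was.

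Values of these genes are means ± SD of 3 libraries. Myosins were called higher in testis and epididymis than in brain, at 6 and 4 of 13 tested and 0 lower by limma, edgeR, DESeq2 or an unadjusted p below 0.05. Myo5a, the motor that carries vesicles along filaments, averaged 1089 ± 36.3 normalised reads in testis, 1423 ± 108 in epididymis and 59.8 ± 30.8 in the brain, a log2 fold of 4.28 for testis versus brain and 4.66 for epididymis versus brain (adjusted p = 6.1e-07 and 3.5e-07). Between testis and epididymis 2 myosin genes were called higher and 1 lower. The higher ones were the light chains Myl6, with 2763 ± 369 in testis, 1069 ± 75.5 in epididymis and 643 ± 214 in the brain (log2 fold 1.36, adjusted p = 0.0047), and Myl12a, with 1320 ± 161, 530 ± 159 and 339 ± 104. The lower one was Myo1f, a membrane-bound class I myosin, with 362 ± 51.3 in testis, 756 ± 115 in epididymis and 330 ± 36.6 in the brain.

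Severing, capping, tropomyosin and bundling genes beyond the members were called higher in testis than brain at 5 of 19 tested and lower at 2. Gsn (gelsolin, which severs and caps) averaged 465 ± 122 normalised reads in testis, 171 ± 84.7 in epididymis and 4.86 ± 8.41 in the brain, a log2 fold of 7.51 for testis versus brain (adjusted p = 0.00016). Fscn1 (fascin, which bundles filaments in fine protrusions) had the opposite order, with 1.71 ± 2.96 in testis, 9.69 ± 16.8 in epididymis and 253 ± 66.1 in the brain, a log2 fold of -7.08 for testis versus brain (adjusted p = 0.011). Lsp1, a leukocyte F-actin binding protein, averaged 1869 ± 407 in testis, 244 ± 96.2 in epididymis and 155 ± 94.3 in the brain, a log2 fold of 3.00 for testis versus epididymis (adjusted p = 0.00072). In that comparison 3 of the 19 were called higher and 0 lower (0 lower also by edgeR and DESeq2, 2 at an unadjusted p below 0.05), and between epididymis and brain 2 were called higher and 1 lower.

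Partners of WASP and WAVE were called lower in testis than brain at 3 of 17 tested and higher at 1, lower in epididymis than brain at 2, and lower in testis than epididymis at 1. Abi3, a subunit of the WAVE complex, averaged 350 ± 49.8 normalised reads in testis, 1458 ± 263 in epididymis and 2529 ± 254 in the brain, with all organs apart. Its log2 fold was -2.05 for testis versus epididymis (adjusted p = 8.8e-05), -2.85 for testis versus brain (adjusted p = 6.1e-07) and -0.81 for epididymis versus brain (adjusted p = 0.047). Cyfip2, another WAVE complex subunit, was the one called higher in testis than brain, with 207 ± 73.6 in testis, 14.5 ± 13.7 in epididymis and 2.73 ± 4.73 in the brain. Abi3 and Wasf2, both WAVE components, were lower in testis and epididymis than in brain.

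The remaining groups held few calls. Of 7 tested formins and other nucleators, 1 was called higher (Diaph1, a formin) and 1 lower (Fmnl3) in testis than brain, and Diaph1 averaged 846 ± 183 normalised reads in testis, 398 ± 193 in epididymis and 86.6 ± 11.6 in the brain. Of 16 tested turnover and monomer factors, 2 were called higher and 1 lower in testis than brain, 1 higher in epididymis than brain, and 0 in testis versus epididymis in limma, edgeR or DESeq2 (3 at an unadjusted p below 0.05). Of 18 other adhesion and membrane linkers, 3 were called higher and 3 lower in testis than brain, 0 higher (1 by DESeq2, 0 by edgeR, 3 at an unadjusted p below 0.05) and 1 lower in testis than epididymis (Tln2), and 1 higher in epididymis than brain. Tln2, the second talin, averaged 80.1 ± 25.4 in testis, 244 ± 10.4 in epididymis and 319 ± 97.9 in the brain, unlike Tln1. Of the muscle actins 1 was tested, Acta2, with 149, 171 and 156 normalised reads in testis, 0, 73 and 1 in epididymis and 0, 2 and 0 in the brain, called for testis versus brain by limma (adjusted p = 0.016) and edgeR and with no call from DESeq2, beside the smooth muscle sums given above. Serum response factor and its actin-sensing coactivators were called in no comparison, 0 of 3 tested in each by limma, edgeR or DESeq2, and 0 had an unadjusted p below 0.05.

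The 39 genes together took 2.38% ± 0.0735 of assigned reads in testis, 1.89% ± 0.078 in epididymis and 1.51% ± 0.204 in the brain (SD, n = 3 each). The libraries ran from 2.31% to 2.45% in testis, from 1.81% to 1.97% in epididymis and from 1.35% to 1.74% in brain, with no overlap. Actb and Arpc1b were among the 21 genes with most reads in every library, and without both the shares were 0.993% ± 0.105 in testis, 0.789% ± 0.0972 in epididymis and 0.674% ± 0.0269 in the brain. Shares of reads follow gene length as well as transcript number.

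**Figure D5:**
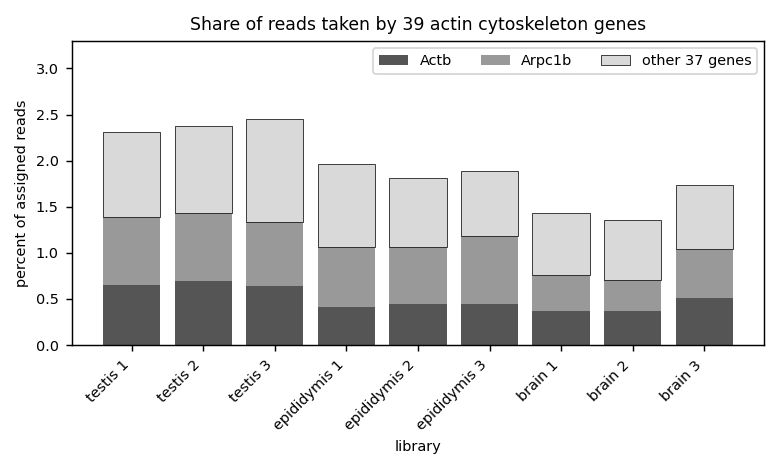
Percent of assigned reads taken by Actb, Arpc1b and the other 37 actin cytoskeleton genes in each of the 9 libraries, stacked from 0. The summed share is 2.31% to 2.45% in the testis libraries, 1.81% to 1.97% in epididymis and 1.35% to 1.74% in the brain.

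The median coefficient of variation of the members between libraries of an organ was 22.6% in testis, 27.7% in epididymis and 22.4% in the brain, against 53.5%, 59.3% and 41.4% over all tested genes. The 2 sets differ in level: a filter of at least 50 kept 38 of the 39 members but 8174 of the 11766 tested genes. No comparison with genes of like level was made. As a description over the 39 members, Pearson's r of log2 levels between libraries was 0.902 to 0.953 within testis, 0.911 to 0.944 within epididymis and 0.891 to 0.942 within brain. It was 0.734 to 0.837 between testis and epididymis, 0.599 to 0.709 between testis and brain, and 0.761 to 0.902 between epididymis and brain.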

How the data were processed

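RNA was sequenced from 9 libraries of sorted macrophages, 3 per organ. The deposited signal values are normalised reads per gene, made by the authors with CASAVA 1.8, Bowtie2 2.2.1, Partek 6.6 and DESeq2 on mm10, per the submitters' processing notes (what each tool did, how reads were counted and with which annotation is not stated there). In each library 100% of values were whole multiples of the smallest value above 0, within 0.01 reads, so reads were recovered by division.

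Tests used log2(value + 1) of these values. Genes with at least 10 in at least 3 libraries (11766 of 15434) were fitted with 1 mean per organ in limma 3.58.1 under R 4.3.3, with variances following the mean level, and called at a Benjamini-Hochberg adjusted p below 0.05 over all tested genes. The alternatives used edgeR 4.0.16 and DESeq2 1.42.0 on recovered reads, other scalings, filters and pseudocounts, and left out libraries. The fit was tested on simulated data. Replicates are numbered in the order of the sample list.

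Coordinates and exon lengths are from GENCODE M21 on GRCm38. Pseudogenes were counted at 90% identity over 50% of a transcript and 200 bases or more. The 40 members and the other lists were chosen with earlier results of these data known. All members are named; of the other actin genes, the rule took up to 2 called genes per list, direction and comparison with the largest folds, of which part is printed, and marker genes enter by their summed level and those at 0 are named. Not every list is reported here.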

Additional observations from a re-analysis of the deposited data

How the results depend on the processing

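Of the 28 differences called for members, 0 changed sign in 19 alternatives, and Ahnak (testis versus epididymis) and Actg1, Actr3, Flna, Ezr, Ahnak and Vim (testis versus brain) kept their calls in all of them. Counts below are for testis versus epididymis, testis versus brain and epididymis versus brain in that order, where members called higher numbered 5, 16 and 5, members called lower 0, 1 and 1, and all genes called 516, 1371 and 564. The cause of the changes was not tested.

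Without the variance trend, members called higher numbered 2, 6 and 1, members called lower 0, 0 and 0, and all genes called 192, 837 and 306. With only the 2 organs in the fit, 0 members were called higher for epididymis versus brain (limma, with 434 of all genes called), 0 lower for testis versus brain, and 250 genes in all for testis versus epididymis. DESeq2 called 788, 1583 and 910 genes in all and 2 members lower for epididymis versus brain. On the same recovered reads edgeR called 366, 1056 and 458 genes in all, with 3 members higher for epididymis versus brain and 0 lower for testis versus brain (3 of the members had an unadjusted p below 0.05 in that direction in limma). Members called lower for testis versus brain numbered 0 without a filter on low values, and 2 with a filter of at least 50, with libraries rescaled to the same total or with quantile normalization (Wasf2 and Wipf1). For testis versus epididymis, 1 member (Wipf1) was called lower with a pseudocount of 10 or with libraries rescaled to the same total. Without both testis replicate 1 and epididymis replicate 3, 1, 12 and 0 members were called higher and 198, 1200 and 432 genes in all.

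The log2 fold of Vim for epididymis versus brain was 2.29 with a pseudocount of 10, against 3.54. Leaving out 1 library at a time, members called higher ranged from 3 to 5, from 11 to 16 and from 1 to 4, members called lower were 0 for testis versus epididymis and ranged from 0 to 1 in the other comparisons, and all genes called ranged from 278 to 442, from 827 to 1457 and from 320 to 597. An organ left with 2 libraries was tested with the spread of all organs.

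Rescaling to the same total moved the median log2 fold of all genes by -0.15 for testis versus epididymis and by -0.22 for testis versus brain, and the median of the members stood 0.45 and 0.88 above it, against 0.47 and 0.89 as deposited. With quantile normalization the members' median stood 0.27, 0.68 and 0.29 above that of all genes. No paired analysis was possible because the labels give no number that links libraries of different organs. The common coefficient of variation that edgeR estimated over all tested genes was 0.913, and the spread behind it may be technical. A log2 fold of -0.68 was called for Wasf2 in testis versus brain, but that call was lost in 14 of 19 alternatives. With 3 libraries an organ, small differences may go undetected. This holds most of all for members with few reads such as Pfn1, which had 48, 78 and 75 reads in all in testis, epididymis and brain.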
